A study of Mus musculus with 6 samples.

Results

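The 34 genes described here encode the glucose transporters, glycolytic enzymes, lactate enzymes and transporters, flux-setting kinases, oxygen sensors and hypoxia-induced proteins of the mouse tailbud. They are a list of named autosomal genes of glycolysis, of glucose and lactate transport and of the response to hypoxia-inducible factor (HIF). All 34 were found among the 37310 gene identifiers of the deposited count tables, on 14 chromosomes, and all 34 were among the 15471 genes with enough counts to be tested. Tailbuds were dissected at embryonic day 9.5. Donor embryos were either wild type (WT/WT) or homozygous (Sd/Sd) for Danforth's short tail, a semidominant germline mutation with ectopic Ptf1a that disturbs notochord, hindgut and tail. Both groups were on the outbred CD-1 strain background, with 3 libraries each. Where RNA was short a library holds the tailbuds of 2 embryos, and the labels do not say which libraries these are. The comparison between genotypes asks here whether energy metabolism and oxygen-response transcripts differ in the mutant tailbud.

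Glycolysis splits glucose into pyruvate and yields ATP without oxygen, and lactate dehydrogenase then turns pyruvate into lactate, which leaves the cell by monocarboxylate transporters. In vertebrate embryos the posterior tip of the growing axis is known for a high rate of glycolysis even in the presence of oxygen, and transcripts of several glycolytic enzymes are graded from high in the tailbud to low in the somites. HIF is a transcription factor whose alpha subunit is hydroxylated by prolyl hydroxylases and degraded when oxygen is present. When oxygen is scarce it accumulates and binds hypoxia response elements, short DNA motifs near glycolytic genes, Vegfa, Bnip3 and many others.

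Libraries held 41788978 to 62296689 counts. Ptf1a, which checks the genotype labels, had 8 counts over the WT libraries and 2671 over the Sd/Sd libraries. The tissue label was checked with 11 defining genes of the posterior tailbud, among them T, Fgf8, Wnt3a and Tbx6. All 11 were detected in every library, and their summed level was 658 to 924 CPM (counts scaled to library size) in WT and 448 to 1066 CPM in Sd/Sd. Sd replicate 3 stood apart from the other libraries: the summed level of 10 somite markers was 42.6 CPM there and 225 to 490 CPM elsewhere. Sd replicate 2 lay at the other end, with the most somite marker RNA (490 CPM) and the least posterior tailbud marker RNA (448 CPM). In tissue measured in bulk, fewer cells of a type and less RNA per cell cannot be told apart.

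The core of the hypoxia response element is the 5-base motif ACGTG or GCGTG. RefSeq promoters (build GRCm38.p6, 250 bases before to 50 bases after a transcription start) were at hand for 32 of the 34 genes, with 48 starts in all, and not for Slc2a3 and Ndrg1. Either motif, on either strand, occurred in 38 of the 48 promoters (79.2%), against 43.8% of the 32851 promoters of all genes. Some windows of the same gene overlap and hold the same match. By gene, 29 of 32 had a match in at least 1 window (90.6%), against 46.7% of 27025 genes. The list itself names genes that respond to HIF, so these shares are given as a description. The promoters of these genes were richer in G and C (median 61.3% against 52.7%). Among promoters with at least 60% GC the motif occurred in 23 of 25 (92%), against 69.2% of 9690. Where the palindrome CACGTG occurs, which is also an E-box and holds ACGTG on both strands, both matches were counted. The 3 promoters below belong to Ldha and Bnip3, which varied together between libraries, and to Vegfa. Vegfa had the smallest p of the 34 genes between genotypes. Numbers of matches were not tested against the variation between libraries. The promoters of Tpi1 and Gpi1, which also varied with Ldha, held 0 matches. Pfkm, which varied opposite to Ldha, held 3 matches in 1 of its windows. Capitals mark the matches. The Ldha promoter (chr7:46845554-46845853, plus strand) held 7 matches, including 2 CACGTG palindromes. The window at another Ldha start held 2 matches. The Bnip3 promoter (chr7:138909457-138909756, minus strand) held 5 matches, including 1 palindrome. The window at the upstream start of Vegfa (chr17:46032328-46032627, minus strand) held 0 matches, which says only that these letters are not in that window. The window at the other Vegfa start (chr17:46025114-46025413, minus strand) held 2. It lies downstream of the first start, and whether HIF binds at its matches was not tested.
Ldha: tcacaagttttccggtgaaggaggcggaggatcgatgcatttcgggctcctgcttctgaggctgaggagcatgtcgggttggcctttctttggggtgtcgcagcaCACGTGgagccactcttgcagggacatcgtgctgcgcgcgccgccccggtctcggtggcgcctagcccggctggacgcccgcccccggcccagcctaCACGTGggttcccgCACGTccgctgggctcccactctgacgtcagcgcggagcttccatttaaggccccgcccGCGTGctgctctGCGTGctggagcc
Bnip3: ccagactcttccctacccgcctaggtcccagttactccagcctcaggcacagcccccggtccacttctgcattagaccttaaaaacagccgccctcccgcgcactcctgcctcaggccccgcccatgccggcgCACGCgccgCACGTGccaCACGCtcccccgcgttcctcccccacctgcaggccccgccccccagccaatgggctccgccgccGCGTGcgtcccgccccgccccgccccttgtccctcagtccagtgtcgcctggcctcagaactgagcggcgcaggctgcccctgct
Vegfa: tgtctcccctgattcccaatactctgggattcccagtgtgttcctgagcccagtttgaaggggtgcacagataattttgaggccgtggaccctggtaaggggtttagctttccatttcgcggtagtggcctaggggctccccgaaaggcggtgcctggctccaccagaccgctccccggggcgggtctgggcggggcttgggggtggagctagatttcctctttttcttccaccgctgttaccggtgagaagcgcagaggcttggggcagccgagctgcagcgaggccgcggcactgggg

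In WT tailbuds the glycolytic chain was expressed at very different levels from step to step. To compare genes, CPM were divided by exon length in kilobases. This length joins all annotated exons of a gene and can exceed that of its main transcript. Levels per kb, their order and the isozyme shares therefore depend in part on the annotation. Pyruvate kinase and lactate dehydrogenase, the last enzymes of the chain, were the highest. In WT, Pkm measured 833 ± 83.8 CPM per kb (SD, n = 3) and Ldha measured 793 ± 108 CPM per kb. By their mean over all 6 libraries, WT and Sd/Sd together, they ranked 21st and 25th of the 14942 tested genes with a known exon length. Aldolase (Aldoa and Aldoc summed, 509 ± 65.9 CPM per kb), Gapdh (469 ± 27.5 CPM per kb), the enolases (383 ± 39.3 CPM per kb) and Tpi1 (352 ± 41.0 CPM per kb) followed. The enolase sum leaves out Eno1b, a near-identical copy of Eno1 described below. Hexokinase, which traps glucose by phosphorylating it, was the lowest step at 38.0 ± 5.82 CPM per kb, and Gpi1, the isomerase after it, measured 82.2 ± 6.46 CPM per kb. The oxygen-sensing gene Hif1a stood at 33.9 ± 2.03 CPM per kb, and the 7 hypoxia-induced genes spread widely from about that level downward. Bnip3 (33.7 ± 10.97 CPM per kb) and Vegfa (28.2 ± 5.11 CPM per kb) were the highest of the 7, Mxi1, Ndrg1 and Ankrd37 stood at 2.83 to 5.76 CPM per kb, and Adm (0.327 ± 0.0753 CPM per kb) and Car9 (0.319 ± 0.0899 CPM per kb) were the lowest.

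**Figure D1:**
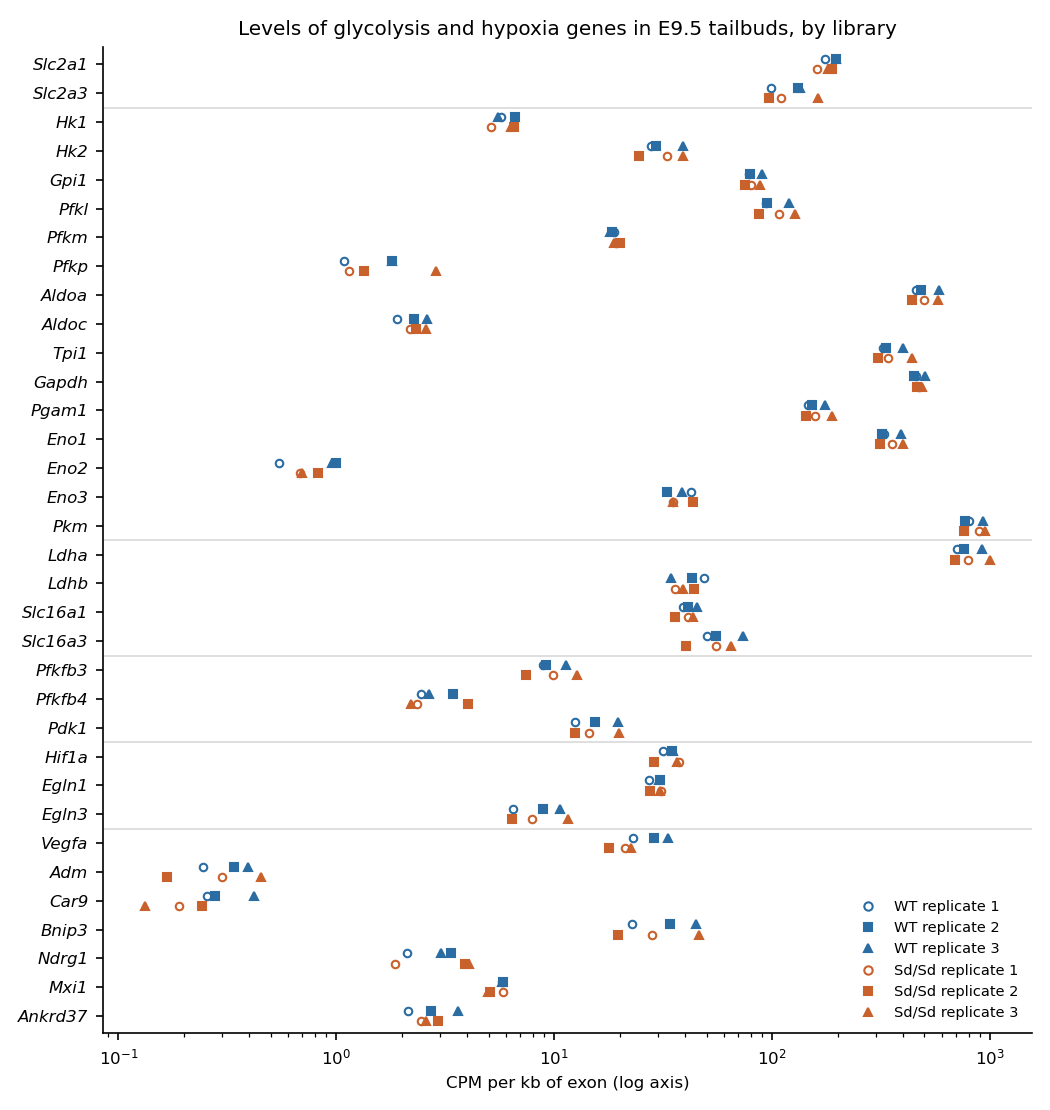
Level of each of the 34 genes in each of the 6 libraries, in CPM per kb of exon on a log axis, with WT libraries in blue, Sd/Sd libraries in orange and the replicate number as the marker shape; grey lines divide the groups of genes by role. Group means run from 0.188 CPM per kb (Car9 in Sd/Sd) to 864 CPM per kb (Pkm in Sd/Sd), and the genotypes overlap for all genes but Vegfa and Car9.

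No difference between genotypes passed the test in these genes: 0 of the 34 were called higher in Sd/Sd, against 0.0388% of all genes, and 0 were called lower, against 0.0194%. In either direction 0 of 34 passed, against 9 of 15471 genes (0.0582%). The test was edgeR's quasi-likelihood test, with Benjamini-Hochberg adjustment over the whole table and a threshold of 0.05. At an unadjusted p under 0.05, 1 of the 34 genes passed, Vegfa, a share of 2.94% against 2.9% of all genes; with DESeq2 it was also 1 of 34, and 0 at an adjusted p under 0.05. The median log2 fold change of the 34 genes was 0.01, with 18 positive and 16 negative, and that of all genes was 0.00. Without Sd replicate 3 the median was -0.10, with 30 of 34 negative, and without Sd replicate 2 it was 0.07, with 10 negative; 0 of 34 passed in either case. For 23 of the 34 genes the 95% interval of the fold change lay within 1.5-fold in either direction (67.6%, against 62.5% of all genes tested). Among genes at 10 CPM or more it was 22 of 29 (75.9%), against 93.3% of all genes at that level, so at like abundance these genes were less tightly bounded. The 11 genes with wider intervals were Pfkp, Eno2, Slc16a3, Pdk1, Egln3, Vegfa, Adm, Car9, Bnip3, Ndrg1 and Ankrd37. The labels do not give the litter of any library, and p-values here measure only how these 6 libraries spread. Within each group that spread was above counting noise for every pair of libraries (chi-square over its degrees of freedom 17.4 to 78.2). How much of it is technical was not tested.

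**Figure D2:**
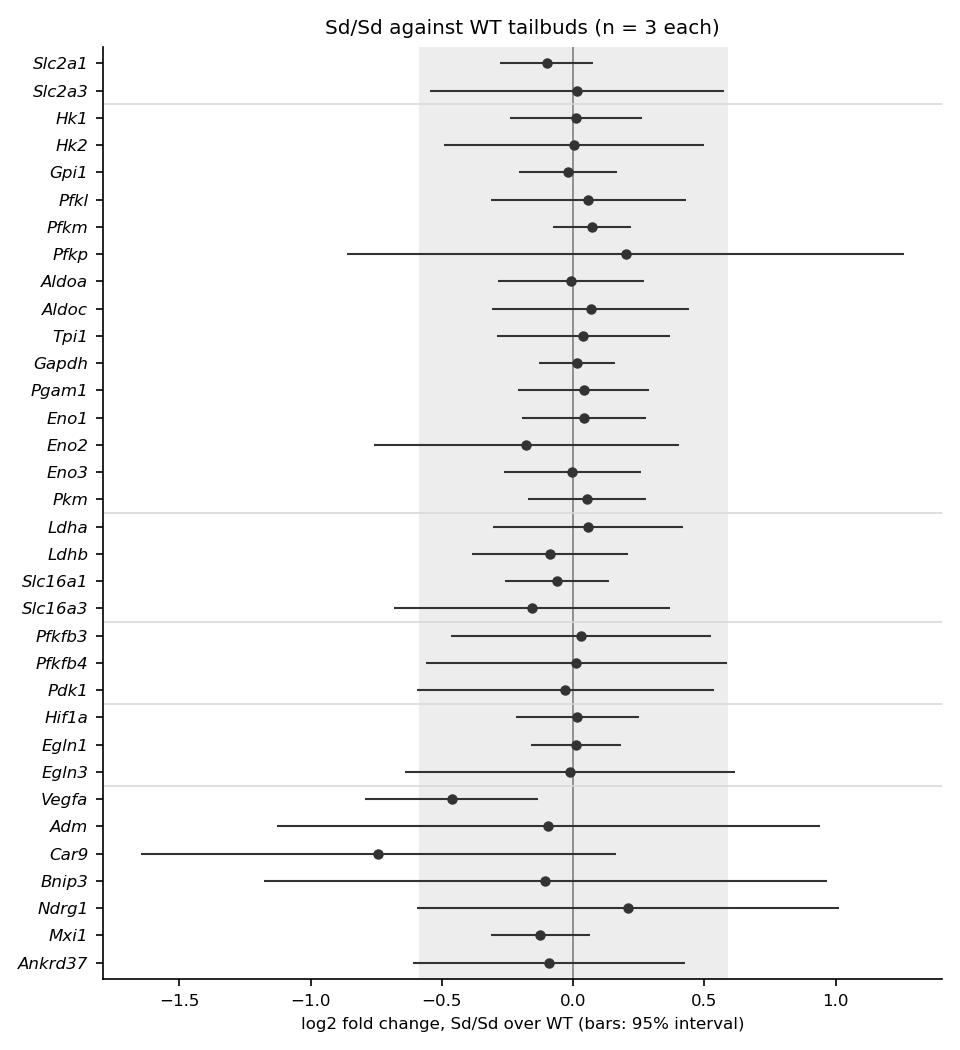
Log2 fold change of Sd/Sd over WT for each of the 34 genes (points) with its 95% interval from the edgeR fit (bars, n = 3 libraries a group); the grey band spans 1.5-fold in either direction. The interval of Vegfa (-0.79 to -0.13) is the only one of the 34 that does not cross 0, before adjustment for the number of genes tested.

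Glucose enters by the facilitative transporters GLUT1 and GLUT3. Slc2a1 (ENSMUSG00000028645.4), which encodes GLUT1, measured 614, 690 and 691 CPM in WT replicates 1 to 3 and 566, 663 and 632 CPM in Sd/Sd replicates 1 to 3. The ranges overlapped, and the log2 fold change was -0.10 (SE 0.08, 95% interval -0.28 to 0.08, edgeR adjusted p = 1.00). Slc2a3 (ENSMUSG00000003153.4), which encodes the higher-affinity transporter GLUT3, measured 718, 951 and 976 CPM in WT against 797, 700 and 1176 CPM in Sd/Sd. Sd replicate 3 was the highest of the 6 libraries and Sd replicate 2 the lowest, on either side of the whole WT range. The log2 fold change of Slc2a3 was 0.01, with an interval of -0.54 to 0.57. In CPM Slc2a3 was above Slc2a1 in every library (WT means 882 and 665 CPM). Its annotated exon length is greater (7245 against 3506 bases), and per kb the order turns. Per kb, GLUT3 made up 38.9 ± 2.42% of the summed RNA of both transporters in WT and 40.6 ± 6.79% in Sd/Sd (SD, n = 3 each; exact permutation test, 2-sided, p = 0.8, adjusted over 7 isozyme families 1.00).

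Among the 15 enzymes of the chain from hexokinase to pyruvate kinase, 11 had a positive and 4 a negative log2 fold change, between -0.18 and 0.20 (median 0.04), and 0 of 15 passed. Hk2 (ENSMUSG00000000628.4), the insulin- and hypoxia-regulated hexokinase, measured 166, 175 and 233 CPM in WT against 196, 146 and 232 CPM in Sd/Sd, so that replicate 3 was the highest library of each genotype. Its log2 fold change was 0.00 (SE 0.20, 95% interval -0.49 to 0.50, edgeR adjusted p = 1.00). Hk1, the widely expressed hexokinase, made up 16.0 ± 3.19% of hexokinase RNA per kb in WT and 16.2 ± 4.21% in Sd/Sd (exact permutation p = 1, 2-sided).

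Phosphofructokinase commits sugar to glycolysis, and its liver-type gene Pfkl made up 83.6 ± 1.91% of the family's RNA per kb in WT and 83.2 ± 2.74% in Sd/Sd. Pfkl (ENSMUSG00000020277.8) measured 628, 634 and 799 CPM in WT against 715, 578 and 851 CPM in Sd/Sd. Replicate 3 was again the highest in both groups, and the log2 fold change was 0.06 (SE 0.16, 95% interval -0.31 to 0.43, edgeR adjusted p = 1.00). The muscle-type gene Pfkm (ENSMUSG00000033065.6) had the smallest spread of the 34 genes within groups, at 63.0, 61.6 and 60.2 CPM in WT against 64.2, 67.1 and 62.7 CPM in Sd/Sd. Here replicate 3 was the lowest library of each group, and the log2 fold change was 0.07 (SE 0.07, 95% interval -0.08 to 0.22, edgeR adjusted p = 1.00). Pfkp, the platelet-type gene, was a minor form at 1.27 ± 0.304% of the family in WT and 1.36 ± 0.529% in Sd/Sd. It reached 38.7 CPM in Sd replicate 3 and 14.5 to 24.0 CPM in the other libraries.

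Aldoa (ENSMUSG00000030695.7), the main aldolase gene, measured 1331, 1403 and 1692 CPM in WT against 1444, 1281 and 1678 CPM in Sd/Sd. The group ranges overlapped over most of their width, and the log2 fold change was -0.01 (SE 0.12, 95% interval -0.29 to 0.27, edgeR adjusted p = 1.00). Aldoc, the brain-type aldolase, stood at 6.22 to 8.48 CPM and made up 0.443 ± 0.0266% of aldolase RNA per kb in WT. Tpi1, which interconverts the triose phosphates, spanned 887 to 1097 CPM in WT against 842 to 1202 CPM in Sd/Sd. Gapdh, the dehydrogenase often used as a reference gene, spanned only 1859 to 2069 CPM and 1909 to 2016 CPM. Its interval was among the narrowest, at -0.13 to 0.16 around a log2 fold change of 0.02.

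Eno1 (ENSMUSG00000063524.7), the ubiquitous enolase gene, measured 1754, 1719 and 2089 CPM in WT against 1902, 1690 and 2134 CPM in Sd/Sd. Its log2 fold change was 0.04 (SE 0.10, 95% interval -0.20 to 0.28, edgeR adjusted p = 1.00), and it made up 89.8 ± 1.26% of enolase RNA per kb in WT and 90.1 ± 2.11% in Sd/Sd. Eno1b, a near-identical copy with an identifier of its own, took 17.3% to 19.1% of the counts of both in every library, so that reads of the pair may be split between them; its log2 fold change was 0.04. Eno3, the muscle enolase, stood at 57.4 to 75.3 CPM over all libraries. Eno2 (ENSMUSG00000004267.10), the neuronal enolase, was scarce, at 2.58, 4.69 and 4.48 CPM in WT against 3.20, 3.90 and 3.26 CPM in Sd/Sd. All Sd/Sd values of Eno2 lay inside the WT range, with a log2 fold change of -0.18 (SE 0.26, 95% interval -0.76 to 0.40, edgeR adjusted p = 1.00). Pgam1, the phosphoglycerate mutase gene, spanned 291 to 346 CPM in WT and 282 to 372 CPM in the mutants. Pkm, whose splice forms M1 and M2 are not separated in these counts, spanned 3855 to 4640 CPM in WT against 3794 to 4717 CPM in Sd/Sd.

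Of the 4 lactate genes 0 passed, with a median log2 fold change of -0.08, and the A subunit made up nearly all lactate dehydrogenase RNA. Ldha (ENSMUSG00000063229.7) measured 2331, 2520 and 3026 CPM in WT against 2608, 2281 and 3299 CPM in Sd/Sd. Replicate 3 was the highest library of both groups and the group ranges overlapped; the log2 fold change was 0.06 (SE 0.15, 95% interval -0.31 to 0.42, edgeR adjusted p = 1.00). Ldhb, the heart-type subunit that favours lactate use, made up 5.14 ± 1.43% of both genes' RNA per kb in WT and 4.69 ± 1.143% in Sd/Sd (exact permutation p = 0.8, 2-sided). Slc16a3 (ENSMUSG00000025161.10), the lactate exporter MCT4, measured 267, 295 and 390 CPM in WT against 294, 215 and 344 CPM in Sd/Sd. Slc16a1 (ENSMUSG00000032902.1), the widely expressed transporter MCT1, measured 173, 183 and 201 CPM in WT against 183, 159 and 191 CPM in Sd/Sd. Both genes overlapped between genotypes, with log2 fold changes of -0.16 for Slc16a3 (95% interval -0.68 to 0.37) and -0.06 for Slc16a1 (-0.26 to 0.13). The shares of 1 isozyme in the 7 families compared differed between genotypes by at most 1.72 percentage points, the difference for Slc16a3. The smallest exact p of the 7 was 0.500, also for Slc16a3, and with 3 libraries a group the smallest p this exact test can reach is 0.1.

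Of the 3 kinases that set flux, 0 passed (median log2 fold change 0.01). Pfkfb3, which makes the phosphofructokinase activator fructose 2,6-bisphosphate, measured 67.0 to 86.0 CPM in WT against 56.1 to 96.2 CPM in Sd/Sd. Pfkfb4, its relative with more balanced kinase and phosphatase activity, was lower at 10.8 to 19.6 CPM. Pdk1, the mitochondrial kinase that switches off pyruvate dehydrogenase and is induced by HIF, measured 97.2, 120 and 153 CPM in WT against 112, 96.6 and 154 CPM in Sd/Sd. Group means of Pdk1 were 123.5 ± 28.0 and 120.9 ± 29.6 CPM, so the spread within a genotype was far larger than the difference between genotypes.

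Of the 3 oxygen-sensing genes 0 passed (median log2 fold change 0.01). Hif1a, the gene of the oxygen-regulated HIF subunit, measured 186, 206 and 208 CPM in WT against 221, 170 and 215 CPM in Sd/Sd. The groups overlapped, with a log2 fold change of 0.02 and a 95% interval of -0.22 to 0.25. Only the transcript is measured here, and the HIF-1 alpha protein is controlled mainly by protein degradation. Egln1, the main prolyl hydroxylase of HIF-1 alpha, stood at 97.9 to 111 CPM in the 6 libraries. Egln3, the HIF-induced hydroxylase, varied more, at 17.2 to 28.4 CPM over the WT libraries and 17.0 to 30.7 CPM over the mutant ones.

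Of the 7 hypoxia-induced genes 0 passed, with 6 of 7 log2 fold changes negative (median -0.11). Vegfa and Car9 were the genes of the 34 without overlap between genotypes, and both were lower in Sd/Sd. That is 2 of 34, against 7.68% of all genes tested without overlap in either direction and 4.42% without overlap and lower in Sd/Sd. Vegfa (ENSMUSG00000023951.9), the vascular endothelial growth factor gene, measured 98.3, 122.6 and 142 CPM in WT against 90.7, 76.4 and 96.1 CPM in Sd/Sd. The highest Sd/Sd library lay just under the lowest WT library. Group means were 121 ± 21.9 and 87.8 ± 10.2 CPM (SD, n = 3 libraries each). The mutant mean was thus 1.38-fold lower, a difference that did not pass the threshold (log2 fold change -0.46, SE 0.14, 95% interval -0.79 to -0.13, edgeR unadjusted p = 0.0120, adjusted p = 1.00). By p, Vegfa ranked 140th of the 15471 genes.

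Of the 8 marker lists, the summed levels of hindgut and muscle markers were, like Vegfa, lower in every Sd/Sd library than in every WT library; endothelial markers are given because these cells respond to Vegfa. All 8 endothelial markers tested, which include its receptor gene Kdr, had a negative log2 fold change (median -0.19, all genes 0.00) and 0 of 8 passed; each was detected in every library. Their summed level was 501 to 563 CPM in WT against 427, 430 and 587 CPM in Sd/Sd, so that Sd replicate 3 lay above the WT range in endothelial RNA and below it in Vegfa. The 10 hindgut markers had a median log2 fold change of -0.62. Their summed level was 235 to 264 CPM in WT against 172 to 186 CPM in Sd/Sd. Of the 10, 2 were lower past the threshold, the hedgehog ligand genes Shh and Ihh (log2 fold changes -1.49 and -1.93, edgeR adjusted p = 0.0438 for both). All 10 log2 fold changes were negative, with Cdh1 at -0.04 and Sox17 at -0.26. Whether these markers stand for hindgut cells alone was not tested. The 6 muscle markers tested summed to 49.4 to 72.1 CPM in WT and 41.1 to 49.0 CPM in the mutants, with 0 of 6 passing. Most of that sum was Actc1 alone, at 48.7, 53.2 and 36.4 CPM in WT against 33.7, 32.7 and 27.4 CPM in Sd/Sd. Of the 6 log2 fold changes, 4 were negative and 2 positive, so the lower sum is mainly that of Actc1. The part of endothelial, hindgut or muscle cells in the level of Vegfa was not tested.

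Car9 (ENSMUSG00000028463.7), which encodes a carbonic anhydrase of hypoxic cells, was close to the detection limit, at 0.588, 0.643 and 0.971 CPM in WT (31, 34 and 41 counts) and 0.437, 0.559 and 0.306 CPM in Sd/Sd (18, 35 and 15 counts). The gap between the groups was small against their spread, and the log2 fold change was -0.74 (SE 0.40, 95% interval -1.65 to 0.16, edgeR adjusted p = 1.00). Mxi1 (ENSMUSG00000025025.7), which encodes a Myc antagonist, measured 39.2, 39.7 and 39.1 CPM in WT against 39.7, 34.5 and 34.1 CPM in Sd/Sd. Sd replicate 1 was level with WT while the other two were lower, and the log2 fold change was -0.12 (SE 0.08, 95% interval -0.31 to 0.06, edgeR adjusted p = 1.00). Bnip3, the mitophagy receptor gene, showed a wide spread: 51.4, 76.8 and 101 CPM in WT against 63.8, 44.7 and 105 CPM in Sd/Sd. Its log2 fold change was -0.11 with an interval of -1.18 to 0.97, so a difference of nearly 2-fold in either direction was not detectable in Bnip3. Adm, the adrenomedullin gene, stood under 1 CPM in every library. Ndrg1, a stress-response gene, spanned 12.3 to 26.8 CPM and Ankrd37, a small ankyrin-repeat gene, 3.30 to 5.59 CPM.

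Many of the genes varied together between libraries in a way that did not follow genotype. In 20 of the 34 genes (58.8%) replicate 3 was the highest library both in WT and in Sd/Sd, against 15.8% of all genes tested. The 20 were Slc2a3, Hk2, Gpi1, Pfkl, Aldoa, Aldoc, Tpi1, Gapdh, Pgam1, Eno1, Pkm, Ldha, Slc16a1, Slc16a3, Pfkfb3, Pdk1, Egln3, Vegfa, Adm and Bnip3. All 34 genes together took 1.68%, 1.71% and 1.99% of the counts of WT replicates 1 to 3 and 1.76%, 1.60% and 2.04% of those of Sd/Sd replicates 1 to 3. Their mean level, as log2 CPM centred on the mean of all libraries, was -0.16, 0.04 and 0.19 in WT and -0.09, -0.14 and 0.15 in Sd/Sd. The 2 libraries of number 3 were therefore high in both genotypes, while Sd replicate 2 and WT replicate 1 were low. The labels do not say whether a replicate number stands for a shared litter, day or preparation, and the pattern was noticed in these data and is given as a description. With other scalings of the libraries, chosen after seeing the data, the count was 20 or 21 of 34, against 14.4% to 16.7% of all genes. Within WT alone, where Sd replicate 3 has no part, replicate 3 was the highest library in 24 of 34 genes, against 33.4% of all genes.

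**Figure D3:**
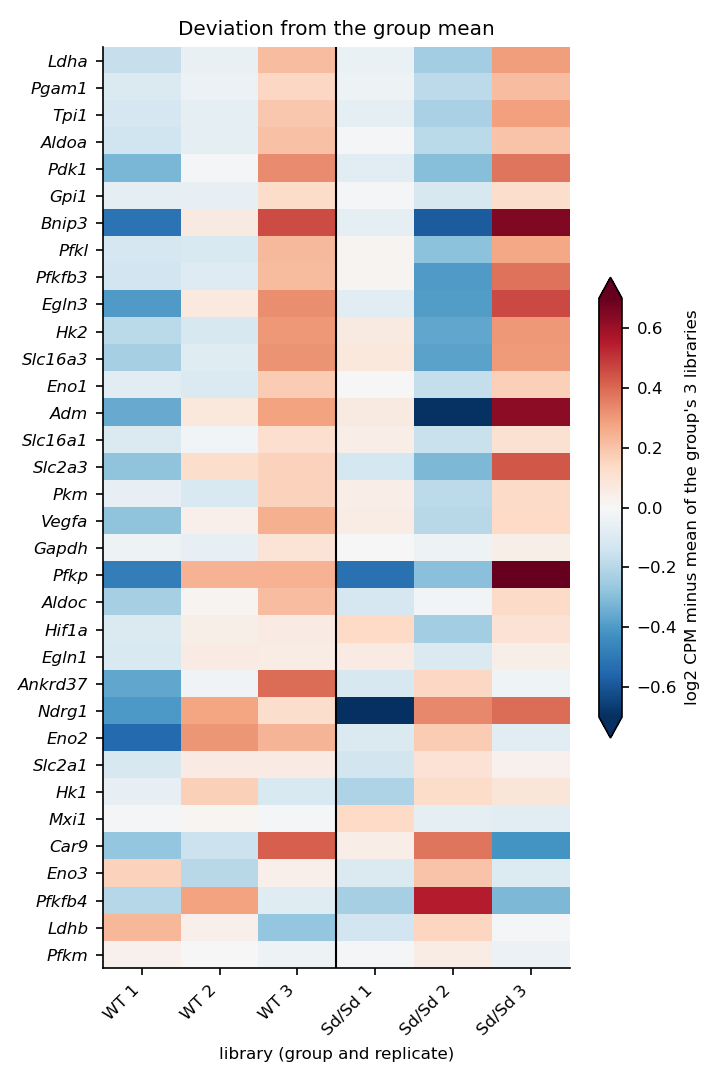
Deviation of each gene from the mean of its own group's 3 libraries, in log2 CPM (colour; red higher, blue lower; values beyond 0.7 take the end colours), for 3 WT and 3 Sd/Sd libraries, with genes ordered by how closely they follow Ldha. The upper rows are red in replicate 3 of both groups and blue in WT replicate 1 and Sd/Sd replicate 2. The order turns in Pfkm at the bottom, though Pfkm stays between -0.04 and 0.05, and for Ldhb it turns in the WT libraries only.

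Deviations from the group means followed those of Ldha with a Pearson r over 0.9 in 16 of the 33 other genes, against 4.70% of all genes tested (r over 6 libraries, which share their depth and tissue composition; a description without a test). Without Sd replicate 3 it was 14 of 33, against 5.25% of all genes. Pgam1 was closest (r = 0.998), followed by Tpi1 (0.994), Aldoa (0.988) and Pdk1 (0.982). Gpi1, Bnip3, Pfkl, Pfkfb3, Egln3, Hk2, Slc16a3, Eno1, Adm, Slc16a1, Slc2a3 and Pkm completed the 16. They include genes from glucose uptake to lactate export, though not Gapdh (0.823), and 2 of the 7 hypoxia-induced genes, Bnip3 and Adm. The other hypoxia-induced genes were Vegfa (0.860), Ankrd37 (0.395), Ndrg1 (0.302), Mxi1 (-0.195) and Car9 (-0.205). Between the lowest and the highest library, Bnip3 spanned 1.97-fold in WT and 2.34-fold in Sd/Sd, while Pkm spanned 1.20-fold and 1.24-fold.

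Isozymes of the same step moved alike in some families and not in others. The lactate transporters both followed Ldha (Slc16a3 r = 0.960, Slc16a1 r = 0.935), and the aldolases did so at 0.988 (Aldoa) and 0.771 (Aldoc). Pfkl followed it (r = 0.974) and Pfkm ran opposite to it (r = -0.956), but Pfkm was nearly flat. From lowest to highest library it spanned 1.05-fold in WT and 1.07-fold in Sd/Sd, against 1.27-fold and 1.47-fold for Pfkl. Eno1 followed it (0.955) while Eno3 did not (-0.487). Ldhb, the alternative subunit of the same enzyme, had r = -0.684, and Pfkfb4 had -0.594 where Pfkfb3 had 0.970. Between the glucose transporters, Slc2a3 had r = 0.925 and Slc2a1 0.186, and between the hexokinases Hk2 had 0.963 and Hk1 -0.111. In library terms, the Ldhb share of lactate dehydrogenase RNA per kb was 6.48%, 5.31% and 3.64% in WT replicates 1 to 3 and 4.35%, 5.96% and 3.76% in Sd/Sd replicates 1 to 3, lowest in replicate 3 of each group. Ldhb itself was lowest in replicate 3 in WT (76.6, 67.1 and 54.2 CPM) but in replicate 1 in Sd/Sd (56.3, 68.6 and 61.1 CPM).

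Genes of related pathways, from lists drawn up for this comparison, showed where the variation was and was not seen. Among 31 other HIF-induced genes tested, 0 passed between genotypes (median log2 fold change -0.02), and 16 were highest in replicate 3 of both groups. Their centred mean levels were -0.11, 0.11 and 0.13 in WT and -0.12, -0.17 and 0.17 in Sd/Sd. Stc2, the stanniocalcin-2 gene of this list, measured 21.9, 29.5 and 40.2 CPM in WT against 22.7, 19.99 and 37.2 CPM in Sd/Sd, and Fam162a, a mitochondrial HIF target, 89.8, 106 and 119 and 93.1, 88.1 and 145 CPM; both were picked after their values were seen. The 2 genes of this list with the smallest p between genotypes were Epo, the erythropoietin gene (WT 2.26 ± 0.0694 CPM, mutant 1.70 ± 0.290 CPM, edgeR adjusted p = 1.00), and Tfrc, the transferrin receptor gene (216 ± 19.6 and 191 ± 25.4 CPM, edgeR adjusted p = 1.00).

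Most genes of oxidative metabolism varied little between libraries, with exceptions. The 22 genes of pyruvate oxidation and the TCA cycle had centred mean levels between -0.03 and 0.03 in all 6 libraries, with 0 of 22 past the threshold and 4 highest in replicate 3 of both groups. The median SD between libraries of a group was 0.08 on the log2 scale for genes of this list, against 0.22 for the 34 genes and 0.16 for all genes. Among genes at 10 CPM or more it was 0.20 for the genes of the 34 and 0.11 for all genes, so this list was less far below the background at that level. Against the deviations of Ldha, 3 of the 22 had r over 0.9 and 9 had r under -0.5. No share of all genes with r under -0.5 was counted to set beside this or the like count for the respiratory chain. The pyruvate dehydrogenase kinase genes Pdk2 (SD 0.49) and Pdk4 (SD 0.44, under 1 CPM) varied more. Mdh1 and Idh3a, dehydrogenases of malate and isocitrate, had the smallest p of them, with log2 fold changes of 0.09 and -0.07. The 20 nuclear genes of the respiratory chain lay between -0.08 and 0.09, again with 0 past, led by Ndufs1 and Atp5a1 at 0.09 and 0.06, and 2 had r over 0.9 and 8 had r under -0.5. Its most variable genes were Cox4i2, which encodes a hypoxia-responsive subunit form (9.63, 13.8 and 18.8 CPM in WT, 11.1, 7.79 and 21.7 CPM in the mutants), and Ndufa4l2, a HIF target (1.28 to 5.67 CPM). Both were highest in replicate 3 of each group; these 4 exceptions were named after their values were seen. The 7 genes of the pentose phosphate pathway lay between -0.03 and 0.05 with 0 past, and Rpe and Rpia had log2 fold changes of -0.17 and 0.12.

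Of 12 other regulators of HIF, among them Arnt, Vhl and Epas1, 0 passed and 0 were highest in replicate 3 of both groups; Siah2 and Hif1an, a ubiquitin ligase and an asparagine hydroxylase gene, came closest with log2 fold changes of -0.22 and 0.08. Of 17 tested genes of 22 listed for further glycolysis and glucose uptake, 0 passed, with Eno4 at -0.48 and Emb, a partner of the lactate transporters, at -0.20. Among 5 gluconeogenesis genes tested 0 passed, with Fbp1 at -0.98 on levels under 1 CPM and Pcx at 0.12. Among 8 genes of the Myc network, which also drives glycolytic genes, 0 passed, with Mxd4 at 0.13 and Mycn at -0.10. Pgk1, the phosphoglycerate kinase gene on the X chromosome, is listed at 0 in every library, as are all 2269 X-linked genes of the tables, so its 0 says nothing of its expression and it was not analysed.

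**Figure D4:**
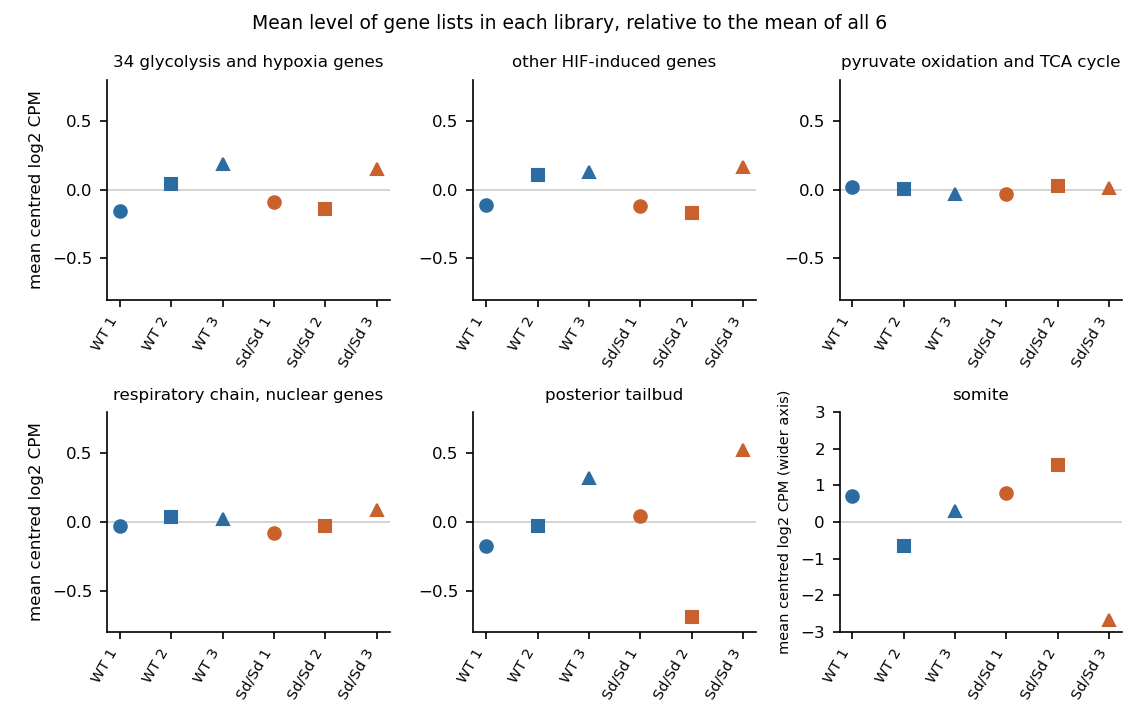
Mean centred log2 CPM of 6 gene lists in each library (WT blue, Sd/Sd orange; marker shape gives the replicate number; the somite panel has a wider axis). The 34 genes and the other HIF-induced genes reach 0.15 to 0.19 and 0.13 to 0.17 in the libraries of number 3, the TCA cycle genes stay between -0.03 and 0.03, and posterior tailbud markers reach 0.32 and 0.53 in the same libraries.

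Posterior tailbud markers varied between the libraries of each group in the same order as the mean level of the 34 genes. All 11 were highest in replicate 3 of both groups, and 7 of 11 followed the deviations of Ldha with r over 0.9. Their centred mean levels were -0.17, -0.03 and 0.32 in WT and 0.05, -0.69 and 0.53 in Sd/Sd. T, the Brachyury gene of posterior mesoderm and notochord, measured 144, 152 and 184 CPM in WT against 143, 77.2 and 203 CPM in Sd/Sd. Fgf8, the growth factor gene of the tail tip, measured 24.96, 24.9 and 34.8 CPM and 24.9, 12.5 and 35.6 CPM. Between genotypes 0 of the 11 passed, with Tbx6 and Wnt3a closest at log2 fold changes of 0.19 and 0.18.

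Somite and neural tube markers ran differently. Of the 10 somite markers, 10 had r under -0.5 with Ldha, and so had 6 of 6 neural tube markers tested. The share of all genes with r under -0.5 was not counted, and these r were not examined without Sd replicate 3. Hindgut markers followed the pattern in part: 4 of 10 were highest in replicate 3 of both groups, against 15.8% of all genes. With Ldha, 2 of these 10 had r over 0.9, against 4.70% of all genes. The 8 endothelial markers had a median r of 0.43, with 0 over 0.9. The summed somite level was 328, 225 and 248 CPM in WT replicates 1 to 3 and 399, 490 and 42.6 CPM in Sd/Sd replicates 1 to 3, so that WT replicate 3 lay below WT replicate 1 and slightly above WT replicate 2. Primitive red cell markers, 9 tested, summed to 3740 to 9056 CPM in WT against 1786 to 10304 CPM in Sd/Sd and were highest in replicate 2 of both groups. Between genotypes 0 of 10 somite, 0 of 6 neural, 0 of 9 red cell, 0 of 6 muscle and 0 of 12 stress and immediate early genes passed, with list medians of 0.32, -0.10, -0.22, -0.19 and -0.15 on the log2 scale. Among the genes with the 2 smallest p of each list were Pax1 and Meox2 (log2 fold changes 1.91 and 0.89), Sox2 and Nkx6-1 (-0.17 and -0.42), Klf1 (-0.22), Actc1 and Myl4 (-0.56 and 0.44), Jun and Dusp1 (-0.24 and -0.20), and, in endothelium, Sox18 and Emcn (-0.26 and -0.30). Differences in which cells were cut with the tailbud were not tested as a source of the shared variation.

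Counts of some members may hold reads of neighbours. By GENCODE M21, 12 of the 34 genes share exon bases with a gene on the opposite strand, the most being Pfkp with Pitrm1 (748 bases), and although the library kit keeps strand, no source used here gives the strand setting of the counting. Processed copies of Ldha, Pgam1 and Aldoa with identifiers of their own drew few reads, at most 115 counts in a library.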

How the data were processed

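PolyA RNA of E9.5 tailbuds was sequenced in 6 libraries from a stranded kit, per the labels' protocols. The authors deposited raw counts per Ensembl gene, 1 table per library; the submitters' processing notes name bcl2fastq 2.17.1.14, CASAVA, STAR 2.5.2b, SAMtools, DESeq2 and the build mm9. No source used here names the counting tool, its strand setting or its annotation. The 34 genes and all other lists were chosen with earlier results of these data known.

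Genes with at least 10 counts by edgeR's filterByExpr, 15471 in all, were tested with edgeR 4.0.16 (R 4.3.3; TMM, robust quasi-likelihood fit, 2-sided, all 6 libraries, no covariate) and Benjamini-Hochberg adjustment at 0.05. SE is the log2 fold change over the root of F. Centred log2 CPM used a prior count of 2. Identifiers without a symbol held 0.622% of counts. GENCODE M21 gave names, chromosomes and exon lengths only, since its build (GRCm38) is not that of the files. Isozyme shares were compared by exact permutation, 3 against 3. Only the edgeR fit was tested on simulated data, with genes varying independently and less spread between libraries than in the real counts. The permutation test, the correlations and the counts by replicate were not tested in this way.

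Genes given in full are those past the threshold, without overlap, among the 8 smallest p, or the most abundant of their isozyme family, and of each other list those past the threshold or else the 2 smallest p; 1 gene this rule names is not reported here. Deviations of libraries with the same number correlated at 0.19, 0.14 and 0.28 over all genes, so the numbers were treated as pairing in an alternative fit; WT replicate 1 and Sd replicate 2 also correlated at 0.18. Other alternatives were DESeq2 1.42.0, RLE scaling, no filter and leaving out each library.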

Additional observations from a re-analysis of the deposited data

How the results depend on the processing

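The number of genes past the threshold, 9, was 40 with DESeq2, 14 without the filter on low counts and 2 to 6 with each library left out; fewer libraries enter those fits, and the cause of the other shifts was not tested. With the replicate number as a block it was 12, and 0 of the 34 genes passed in that fit or in any other run. Vegfa was lower in Sd/Sd in every alternative, at a log2 fold change of -0.59 to -0.33 and an adjusted p of 0.1995 to 1.00, with 0.488 under the replicate block. The replicate block turned Slc2a3 to -0.0070, Hk2 to -0.0062 and Pfkfb4 to -0.028.

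Of 340 refitted values of the 34 genes, 65 changed sign, in 27 genes, none of them past the threshold with either sign; the 7 genes that kept their sign in all were Slc2a1, Pfkm, Eno2, Vegfa, Car9, Ndrg1 and Mxi1. With each library left out, log2 fold changes ran from -0.24 to 0.16 for Slc2a3, -0.055 to 0.11 for Hk1, -0.16 to 0.17 for Hk2, -0.083 to 0.048 for Gpi1, -0.088 to 0.19 for Pfkl, -0.33 to 0.44 for Pfkp, -0.12 to 0.10 for Aldoa, -0.036 to 0.18 for Aldoc, -0.12 to 0.15 for Tpi1, -0.014 to 0.064 for Gapdh, -0.078 to 0.13 for Pgam1, -0.046 to 0.14 for Eno1, -0.11 to 0.086 for Eno3 and -0.015 to 0.14 for Pkm. They ran from -0.10 to 0.17 for Ldha, -0.21 to 0.037 for Ldhb, -0.12 to 0.011 for Slc16a1, -0.32 to 0.016 for Slc16a3, -0.18 to 0.21 for Pfkfb3, -0.32 to 0.17 for Pfkfb4, -0.24 to 0.15 for Pdk1, -0.049 to 0.13 for Hif1a, -0.036 to 0.061 for Egln1, -0.28 to 0.17 for Egln3, -0.50 to 0.21 for Adm, -0.50 to 0.15 for Bnip3 and -0.25 to 0.13 for Ankrd37. Differences in isozyme share, in percentage points, ran from -2.22 to 1.55 for Hk1, -0.20 to 0.32 for Pfkp, -0.0015 to 0.044 for Aldoc, -0.063 to 0.0033 for Eno2, -1.21 to 0.21 for Ldhb, -1.73 to 5.06 for Slc2a3 and -3.34 to 0.16 for Slc16a3.

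With 3 libraries a group, the intervals of 11 of the 34 genes took in differences of over 1.5-fold, and Car9 and Adm rest on 15 to 41 counts a library.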
